A study of Mus musculus with 6 samples.

Results

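The genes described here are the 10 named genes of glucose transport and glycolysis in the series: the transporter genes Slc2a1 and Slc2a3, and the enzyme genes Hk2, Pfkl, Aldoa, Gapdh, Pgk1, Eno1, Pkm2 and Ldha. They were chosen by name, as rows of the deposited expression table, and all 10 were found among its 23235 genes. RNA sequencing was done on long-term haematopoietic stem cells (LT-HSCs) sorted from bone marrow of C57BL/6 mice 2 months old, 3 libraries from wild-type (WT) mice and 3 from Hmces knockout mice. HMCES protects abasic sites, which are DNA positions that have lost their base, by linking itself to them. The labels do not describe the knockout allele, do not say whether libraries came from separate mice, and give all 6 titles, WT included, the unexplained tag 13bp. The series' design text speaks of duplicates, whereas the labels give 3 libraries per genotype, and the 3 were treated as replicates here. P-values therefore measure only the spread between these libraries, which may be technical.

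Glycolysis splits glucose into pyruvate in the cytosol, with a net yield of ATP and NADH. GLUT transporters carry glucose in, hexokinase traps it as glucose 6-phosphate, phosphofructokinase commits it to the pathway, and lactate dehydrogenase turns pyruvate into lactate while regenerating NAD+. LT-HSCs in the marrow are known for relying on glycolysis more than their progeny do, and the hypoxia factor HIF-1 is a known activator of many genes of this pathway.

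Depth, estimated from the value steps of low genes, ran from 9.3 to 14.2 in units of 1e6 fragments per library. Hmces, listed as 8430410A17Rik, lay between 39.5 and 45.4 FPKM (fragments per kilobase of transcript scaled to a library's mapped fragments) in WT libraries and between 0.222 and 8.95 FPKM in knockout libraries. Stem cell markers were present in both genotypes. Means in WT and knockout were 26.8 and 23.6 FPKM for Procr, 117 and 118 FPKM for Kit, and 231 and 311 FPKM for Ly6a. Slamf1 was low at 3.46 and 2.43 FPKM, as were Mecom at 5.81 and 5.56 FPKM and Hlf at 9.88 and 10.6 FPKM. Of 15 stem cell markers, 13 were tested, with 5 positive and 8 negative log2 fold changes and 0 called. Groups did not overlap for Ly6a, Mllt3 and Tek, each higher in the knockout. Cd48 and Flt3, surface markers of progenitors that LT-HSCs lack or carry at low levels, were also read, at means of 180 and 137 FPKM in WT and of 279 and 141 FPKM in the knockout. The Cd48 groups did not overlap and the Flt3 groups did. Of 6 progenitor markers, 4 (Cd48, Fcgr3, Il7r and Fcgr2b) were higher without overlap and at an unadjusted p under 0.05, 0 were called, and the median log2 fold change was 0.87. Their summed FPKM ran from 771 to 862 in WT and from 925 to 963 in knockout libraries, and none was at 0 throughout. Granulocyte markers were more abundant in the knockout. The summed FPKM of 18 markers ran from 6796 to 10586 in WT and from 19080 to 25512 in knockout libraries. None of the 18 was at 0 throughout, 15 were higher without overlap, and 2 passed the test. Of all 11532 genes tested, 7.47% were higher in the knockout without overlap. An unadjusted p under 0.05 in either direction was reached by 9.16%, and 0.113% were called at an adjusted p under 0.05. In bulk samples, fewer cells of a type and less RNA per cell cannot be told apart. Knockout replicate 2 lay far from the other libraries in a principal component analysis, and values without it are given where they matter.

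None of the 10 genes passed the test between genotypes. Slc2a1, which encodes the transporter GLUT1, had the largest difference, with a mean 1.89 times the WT mean in the knockout. The other 9 genes had knockout means between 0.858 and 1.04 times the WT mean. Called at an adjusted p under 0.05 were 0 of the 10 genes, against 13 of 11532 genes tested (0.113%; limma on log2(FPKM + 1)). At an unadjusted p under 0.05 the count was 1 of 10, Slc2a1, against 9.16% of all genes tested. Groups did not overlap, with the knockout higher, for 1 gene, Slc2a1 (7.47% of all genes tested), and with the knockout lower for 3 genes, Pfkl, Pkm2 and Ldha (8.34% of all genes tested).

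**Figure D1:**
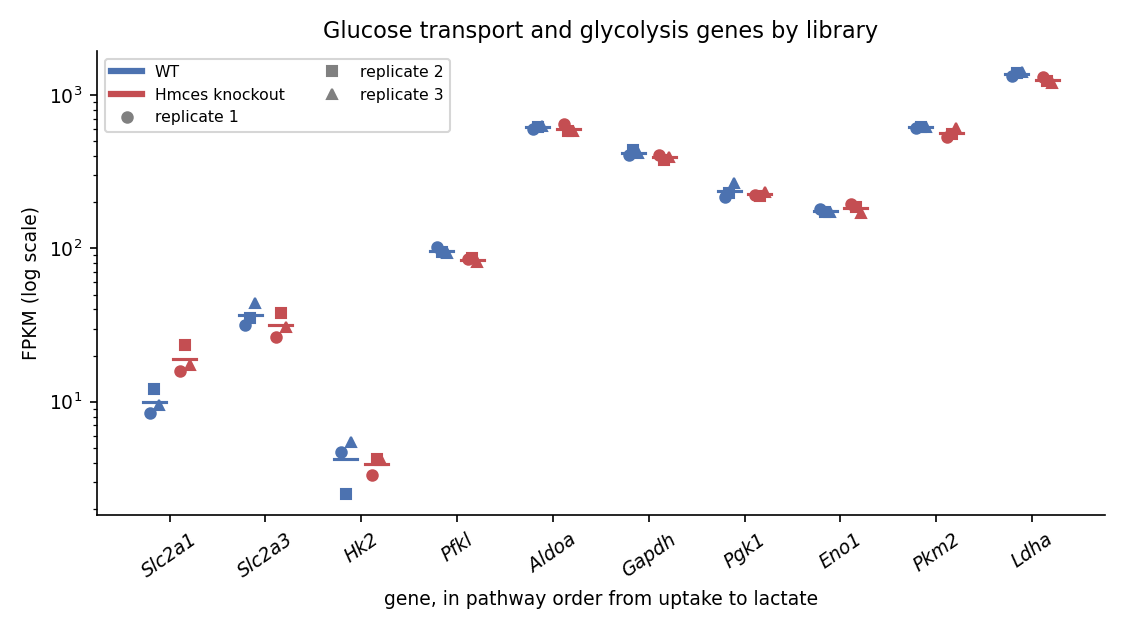
FPKM on a log axis for the 10 genes in pathway order; each point is 1 library, with marker shape for the replicate number, and short lines are the means of the 3 WT (blue) and 3 Hmces knockout (red) libraries. Slc2a1 is the gene whose knockout points (15.8 to 23.5 FPKM) lie clearly above its WT points (8.37 to 12.1 FPKM), and Ldha is the most abundant gene in every library.

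The levels covered more than 2 orders of magnitude along the pathway. Averaged over the 6 libraries, Ldha had 1316 FPKM, followed by Aldoa at 610.2 FPKM and Pkm2 at 592 FPKM. Gapdh had 407 FPKM, Pgk1 231 FPKM and Eno1 179.8 FPKM. Transcripts of the entry to the pathway were scarcer, at 90.6 FPKM for Pfkl, 34.3 FPKM for Slc2a3, 14.4 FPKM for Slc2a1 and 4.05 FPKM for Hk2. FPKM is a level per transcript length, so these values can be set against each other. Aldoa and Pkm2 were the 1 pair of neighbours in this order whose ranges overlapped, with Aldoa above Pkm2 in 4 of 6 libraries. Each other gene lay above the next in 6 of 6 libraries. These are levels of single genes and not of whole steps. With the listed genes of each step summed, WT means ran from 61.8 FPKM for the 11 Slc2a genes set under glucose uptake to 1439.5 FPKM for lactate dehydrogenase. The hexokinase genes summed to 105 FPKM in WT. Gpi1, an entry gene outside the 10, averaged 255 FPKM over the 6 libraries.

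Promoter sequence is shown for Slc2a1, which had the largest difference, for Ldha, the most abundant transcript, and for Pgk1, because all 3 are textbook targets of HIF-1. Each line gives the 250 bases before an annotated start, from RefSeq on GRCm38.p6, plus strand. Capitals mark ACGTG on either strand, a form of the core that HIF factors bind, and CACGTG, the E-box bound by Myc, which contains ACGTG. The other form of the HIF core, GCGTG, was not searched for, so it is neither marked nor counted. The regions are chr4:119108495-119108744 for Slc2a1, chr7:46845554-46845803 for the first of 2 listed starts of Ldha, and chrX:106186850-106187099 for Pgk1. The bases after this first Ldha start were not found in a GENCODE M21 transcript of the gene, while those after its other start, whose upstream region is chr7:46846832-46847081, were found, and that region held 0 matches of either motif.
Slc2a1: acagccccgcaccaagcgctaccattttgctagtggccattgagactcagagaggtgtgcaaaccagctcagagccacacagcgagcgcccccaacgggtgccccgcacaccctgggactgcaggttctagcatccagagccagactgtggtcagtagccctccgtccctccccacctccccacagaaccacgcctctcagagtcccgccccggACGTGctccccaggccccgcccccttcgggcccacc
Ldha: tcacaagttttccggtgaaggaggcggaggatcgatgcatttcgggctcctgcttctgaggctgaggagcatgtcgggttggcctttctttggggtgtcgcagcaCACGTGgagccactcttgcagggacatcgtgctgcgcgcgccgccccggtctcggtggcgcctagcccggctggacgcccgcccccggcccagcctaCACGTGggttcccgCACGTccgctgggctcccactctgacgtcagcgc
Pgk1: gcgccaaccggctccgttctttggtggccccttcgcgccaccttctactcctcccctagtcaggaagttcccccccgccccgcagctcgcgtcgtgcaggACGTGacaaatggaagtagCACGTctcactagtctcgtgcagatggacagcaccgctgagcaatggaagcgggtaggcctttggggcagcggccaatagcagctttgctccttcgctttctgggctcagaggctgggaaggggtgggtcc

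Of the 10 genes, 9 had a promoter in the RefSeq table, and 6 of these (Slc2a1, Hk2, Aldoa, Pgk1, Ldha and Pkm, the current symbol of Pkm2) held ACGTG before at least 1 listed start. Over all genes in that table the share was 18.5%, and over all promoters of this length 16.6%. A gene with more listed starts has more chances of a match. The table listed 32851 promoters for 27025 genes, while several of the 9, such as Aldoa and Eno1, had more than 1. The shares were not matched for the number of starts. CACGTG was found for Ldha alone of the 9, against 6.86% of all genes. Both Ldha counts rest on its first start, and without that start 5 of 9 genes held ACGTG and 0 of 9 held CACGTG. A match is a stretch of letters in this window. It does not show binding. Slc2a3 is the gene without an entry.

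Slc2a1, which encodes GLUT1, the widespread basal glucose transporter, was read at 8.37, 12.1 and 9.56 FPKM in WT replicates 1 to 3 and at 15.8, 23.5 and 17.3 FPKM in knockout replicates 1 to 3. Every knockout library was above every WT library, with knockout replicate 2 the highest. The means were 10.01 ± 1.89 FPKM in WT and 18.9 ± 4.07 FPKM in the knockout (SD, n = 3 each). The log2 fold change was 0.85 (SE 0.23, 95% confidence interval 0.30 to 1.39), with an unadjusted p of 0.00707 and a limma adjusted p of 0.385, so the gene was not called. Without knockout replicate 2 the log2 fold change was 0.69. These values rested on an estimated 246 to 489 fragments in WT libraries and 462 to 806 in knockout libraries. The same knockout libraries held more granulocyte and progenitor marker RNA, as given above, and its part in the Slc2a1 values was not tested.

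Slc2a3 encodes GLUT3, a transporter with high affinity for glucose. It was read at 31.7, 35.2 and 43.8 FPKM in WT, against 26.3, 38.0 and 30.6 FPKM in the knockout. The groups overlapped, with WT replicate 3 the highest and knockout replicate 1 the lowest. The fitted difference on the log2 scale was -0.22 (SE 0.20, 95% confidence interval -0.67 to 0.23, limma adjusted p = 0.757). It was -0.35 without knockout replicate 2, -0.097 without knockout replicate 1 and -0.091 without WT replicate 3. Dividing one gene by the other within a library removes the scaling of that library. Slc2a1 FPKM over Slc2a3 FPKM was 0.264, 0.344 and 0.218 in WT and 0.601, 0.618 and 0.565 in the knockout, a description chosen after the values were seen. The 3 knockout ratios lay close together and above all WT ratios.

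**Figure D2:**
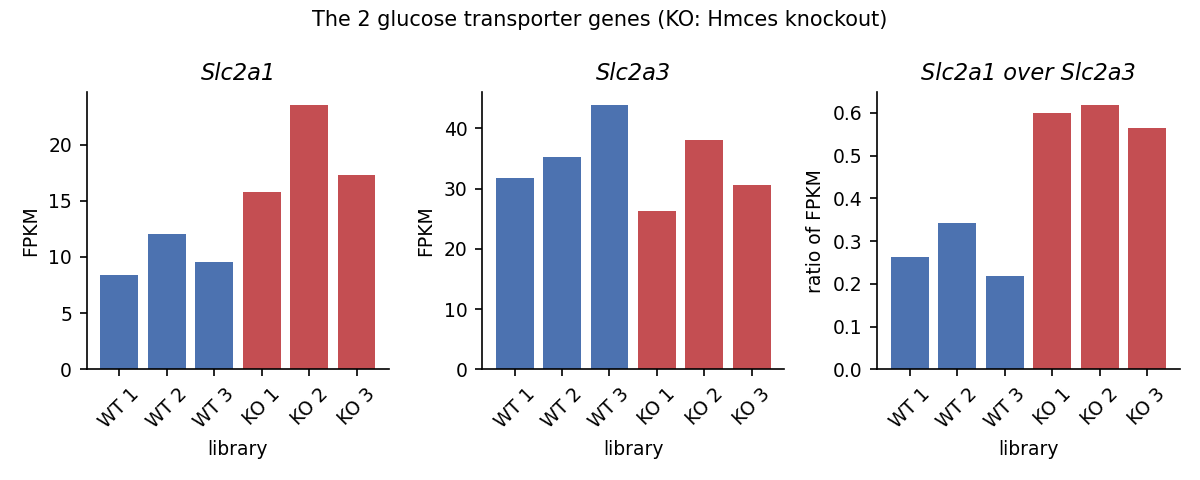
Bars from 0 give the FPKM of Slc2a1 (left), of Slc2a3 (middle) and the ratio of both (right) in each of the 6 libraries, WT in blue and Hmces knockout in red. Slc2a1 is higher in each knockout library, Slc2a3 overlaps, and the ratio is at most 0.344 in WT and at least 0.565 in the knockout.

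Slc2a3 was the main transporter transcript in both genotypes. Of the summed FPKM of 11 Slc2a genes, Slc2a3 took 59.7% ± 1.80 in WT and 47.3% ± 1.80 in the knockout, and Slc2a1 took 16.4% ± 3.26 and 28.1% ± 2.31 (SD, n = 3 each). Neither share overlapped between genotypes, though shares of the same sum depend on each other. The summed FPKM of the 11 genes did overlap, at 52.6, 61.0 and 71.8 in WT and 55.0, 78.0 and 67.7 in the knockout. Slc2a8, which encodes the intracellular transporter GLUT8, had 7.92 ± 2.69 FPKM in WT and 11.3 ± 2.41 FPKM in the knockout (limma adjusted p = 0.658). Slc2a10 had 2.82 ± 0.229 and 1.95 ± 0.127 FPKM (adjusted p = 0.718), with groups that did not overlap. Slc2a6 had means of 2.28 and 2.05 FPKM, and Slc2a9 of 1.72 and 0.927 FPKM, in WT and knockout, each with overlapping groups. The other 5 transporter genes of the list had a mean under 1 FPKM and were not tested.

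Hexokinase transcripts came mostly from Hk1, not from Hk2. Hk2 encodes the inducible hexokinase II, which binds to mitochondria, and was read at 4.68, 2.49 and 5.44 FPKM in WT, against 3.31, 4.21 and 4.18 FPKM in the knockout. The knockout values all lay inside the WT range, and WT replicate 2 was the lowest of the 6. On the log2 scale the difference was -0.05 (SE 0.33, 95% confidence interval -0.80 to 0.71, limma adjusted p = 0.982), the widest interval of the 10 genes. It rested on an estimated 168 to 410 fragments per library. Hk2 took 3.98% ± 1.36 of the hexokinase FPKM in WT and 3.56% ± 0.0931 in the knockout (SD, n = 3 each). Hk1, the housekeeping hexokinase, had 71.9 ± 2.86 and 73.2 ± 11.9 FPKM (adjusted p = 0.989). Hk3, the hexokinase of myeloid cells, had 28.8 ± 1.87 FPKM in WT and 31.8 ± 8.18 FPKM in the knockout (adjusted p = 0.895), with knockout replicate 3 highest at 41.0 FPKM.

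Pfkl encodes the liver-type subunit of phosphofructokinase, the enzyme of the committed step. Its values were 102.4, 94.2 and 93.4 FPKM in WT, against 85.3, 86.9 and 81.2 FPKM in the knockout. All knockout libraries lay below all WT libraries, by a margin smaller than the range within WT. The limma log2 fold change was -0.19 (SE 0.11, 95% confidence interval -0.45 to 0.07, limma adjusted p = 0.646). The muscle-type gene Pfkm had 27.8 ± 3.01 and 27.3 ± 0.677 FPKM (adjusted p = 0.984), and the platelet-type gene Pfkp had 19.8 ± 1.61 and 22.3 ± 2.64 FPKM (adjusted p = 0.792). Pfkl took 67.0% ± 1.90 of the summed FPKM of the 3 subunit genes in WT and 63.0% ± 0.815 in the knockout (SD, n = 3 each). Its share did not overlap between genotypes, and neither did that of Pfkp, at 13.7% ± 0.559 and 16.6% ± 1.34. Shares of the same sum depend on each other, and the FPKM values of Pfkp overlapped. The sum over the 3 genes overlapped, with means of 144 FPKM in WT and 134 FPKM in the knockout.

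**Figure D3:**
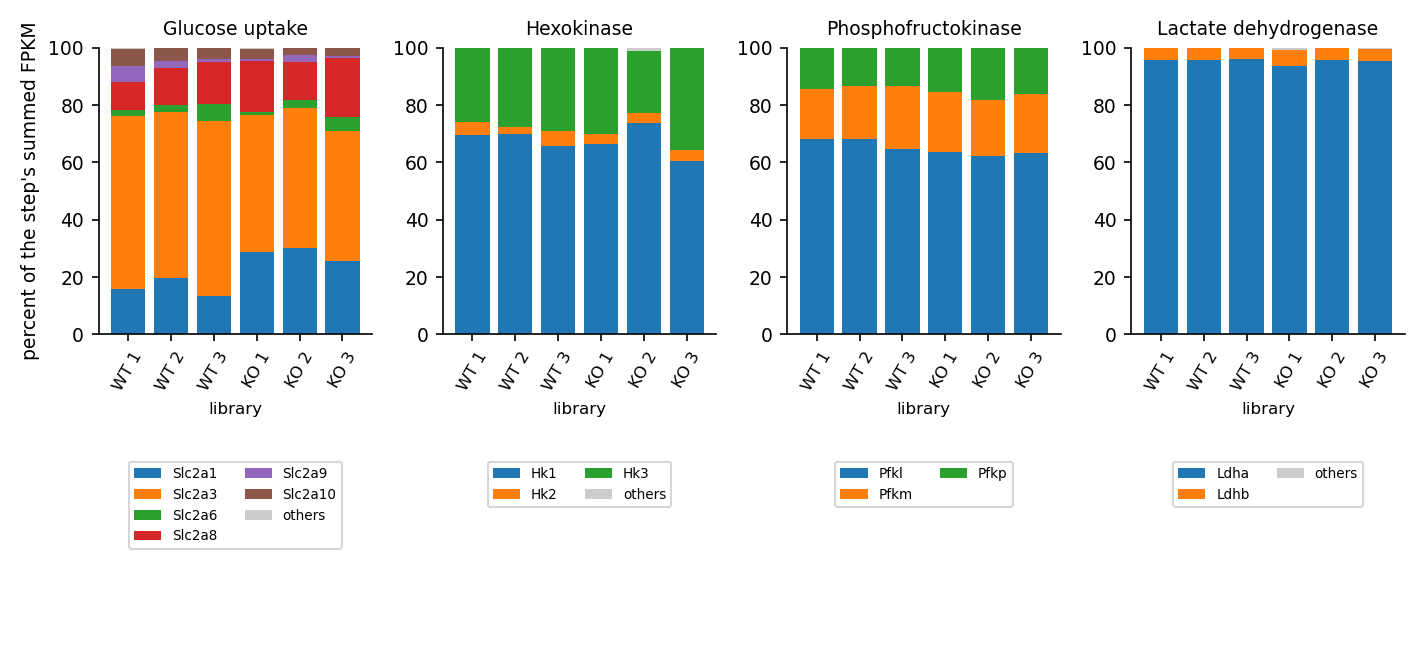
Stacked bars give, for each of the 6 libraries, the percent of the summed FPKM of a step taken by each of its genes, at the 4 steps named above the panels; genes under 2% in both genotypes are pooled as others. Slc2a3, Hk1, Pfkl and Ldha take the largest share of their step in each library, and the Slc2a1 share is larger in all 3 knockout libraries.

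Between phosphofructokinase and the triose stage, Aldoa, the gene of aldolase A, was the steadiest of the 10. The 6 libraries gave 598, 624 and 629 FPKM in WT, against 646, 582 and 582 FPKM in the knockout. The highest and the lowest value were both knockout libraries, so the WT values all lay within the knockout range. Its log2 fold change was -0.03 (SE 0.09, 95% confidence interval -0.25 to 0.18, limma adjusted p = 0.936). Aldoc, the aldolase of brain, had 12.3 ± 4.25 and 14.9 ± 6.48 FPKM (adjusted p = 0.870), with overlapping groups. Aldoa made up 98.1% ± 0.624 of aldolase FPKM in WT and 97.6% ± 1.09 in the knockout (SD, n = 3 each).

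Gapdh encodes glyceraldehyde-3-phosphate dehydrogenase, which makes the NADH of glycolysis and is widely used as a reference gene. It was measured at 405, 439 and 418 FPKM in WT, against 408, 378 and 394 FPKM in the knockout. Knockout replicate 1 reached into the WT range, and the other knockout libraries lay just below it. The log2 fold change was -0.10 (SE 0.09, 95% confidence interval -0.31 to 0.12, limma adjusted p = 0.773). Gapdh level is less certain than that of single-copy genes, since 144 annotated pseudogenes matched its transcript at 90% identity or more over at least 50% of its length. By the same measure Ldha had 6 such pseudogenes, Eno1 and Pkm2 had 5 each, Aldoa had 4 and Pgk1 had 2, while Slc2a1, Slc2a3, Hk2 and Pfkl had 0.

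Pgk1 encodes phosphoglycerate kinase, the first enzyme of the pathway to make ATP. It was read at 215, 229.8 and 265 FPKM in WT, against 223, 219.6 and 232 FPKM in the knockout. The 3 knockout values lay inside the WT range, which WT replicate 3 widened at its upper end. The fitted difference on the log2 scale was -0.07 (SE 0.11, 95% confidence interval -0.33 to 0.19, limma adjusted p = 0.875). Eno1, the gene of alpha-enolase, was the other gene with a positive difference besides Slc2a1. Its values were 181, 174 and 174 FPKM in WT and 194, 187 and 169.7 FPKM in the knockout. Knockout replicate 3 was the lowest of the 6 and replicate 1 the highest, so the groups overlapped. On the log2 scale the difference was 0.05 (SE 0.10, 95% confidence interval -0.18 to 0.29, limma adjusted p = 0.900). Of the other enolase genes, Eno2 had 0.524 ± 0.479 FPKM in WT and 1.70 ± 0.527 FPKM in the knockout, and Eno3 had 6.24 ± 2.32 and 7.12 ± 1.96 FPKM (adjusted p = 0.569 and 0.894).

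The last 2 steps, to pyruvate and to lactate, had similar ratios of mean summed FPKM, knockout over WT. The ratio was 0.921 for pyruvate kinase genes and 0.918 for lactate dehydrogenase genes. The lactate dehydrogenase sums overlapped, and the pyruvate kinase sums missed overlap only narrowly. Their highest knockout sum was 612.88 FPKM in replicate 3, and their lowest WT sum was 612.95 FPKM in replicate 1. The row named Pkm2 holds the whole pyruvate kinase gene now called Pkm, so its muscle M1 and M2 splice forms are not told apart here. Its values were 612, 617 and 622 FPKM in WT, against 536, 557 and 611 FPKM in the knockout. All 3 knockout libraries lay below WT, although knockout replicate 3 missed the lowest WT library by under 2 FPKM. The limma log2 fold change was -0.12 (SE 0.09, 95% confidence interval -0.34 to 0.09, limma adjusted p = 0.711), and under quantile normalization it was -0.019.

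Ldha encodes the lactate dehydrogenase subunit that favours lactate formation and was the 93rd most abundant gene among those tested. The 6 libraries gave 1329, 1388 and 1419.7 FPKM in WT, against 1313, 1239 and 1209 FPKM in the knockout. The knockout libraries lay below WT, with replicate 1 close to the lowest WT library. Its log2 fold change was -0.14 (SE 0.09, 95% confidence interval -0.34 to 0.06, limma adjusted p = 0.672), and under quantile normalization it was -0.028. The lactate dehydrogenase genes summed to 1390.3, 1448 and 1480.3 FPKM in WT, against 1402, 1293 and 1268 FPKM in the knockout, with knockout replicate 1 above WT replicate 1. Ldhb, whose subunit favours the reverse reaction, had 57.4 ± 0.451 FPKM in WT and 61.0 ± 15.8 FPKM in the knockout (adjusted p = 0.944), with knockout replicate 1 at 79.2 FPKM. Ldha took 95.8% ± 0.163 of the lactate dehydrogenase FPKM in WT and 94.96% ± 1.12 in the knockout (SD, n = 3 each). Ldhd, which acts on D-lactate, had 2.31 ± 0.455 and 5.34 ± 3.03 FPKM (adjusted p = 0.588), with overlapping groups.

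3 steps have no gene among the 10. Gpi1, the gene of glucose-6-phosphate isomerase, was read at 237, 244 and 247 FPKM in WT, against 248, 305 and 249 FPKM in the knockout. The knockout libraries were all higher, replicate 1 by under 1 FPKM (limma adjusted p = 0.742). Tpi1, the triosephosphate isomerase gene, had 463, 501 and 594 FPKM in WT and 484, 446 and 434 FPKM in the knockout, with overlapping groups (adjusted p = 0.682). Pgam1, the phosphoglycerate mutase gene, was read at 302, 323 and 313 FPKM in WT, against 344, 349 and 349 FPKM in the knockout. Its groups did not overlap and the log2 fold change was 0.15 (SE 0.09, 95% confidence interval -0.05 to 0.36, adjusted p = 0.646). Bpgm, whose enzyme makes 2,3-bisphosphoglycerate, had 16.7 ± 2.94 and 16.6 ± 4.26 FPKM (adjusted p = 0.989). Of 32 other genes of the same steps, 17 were tested, 11 had a positive and 6 a negative log2 fold change, and 0 were called.

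**Figure D4:**
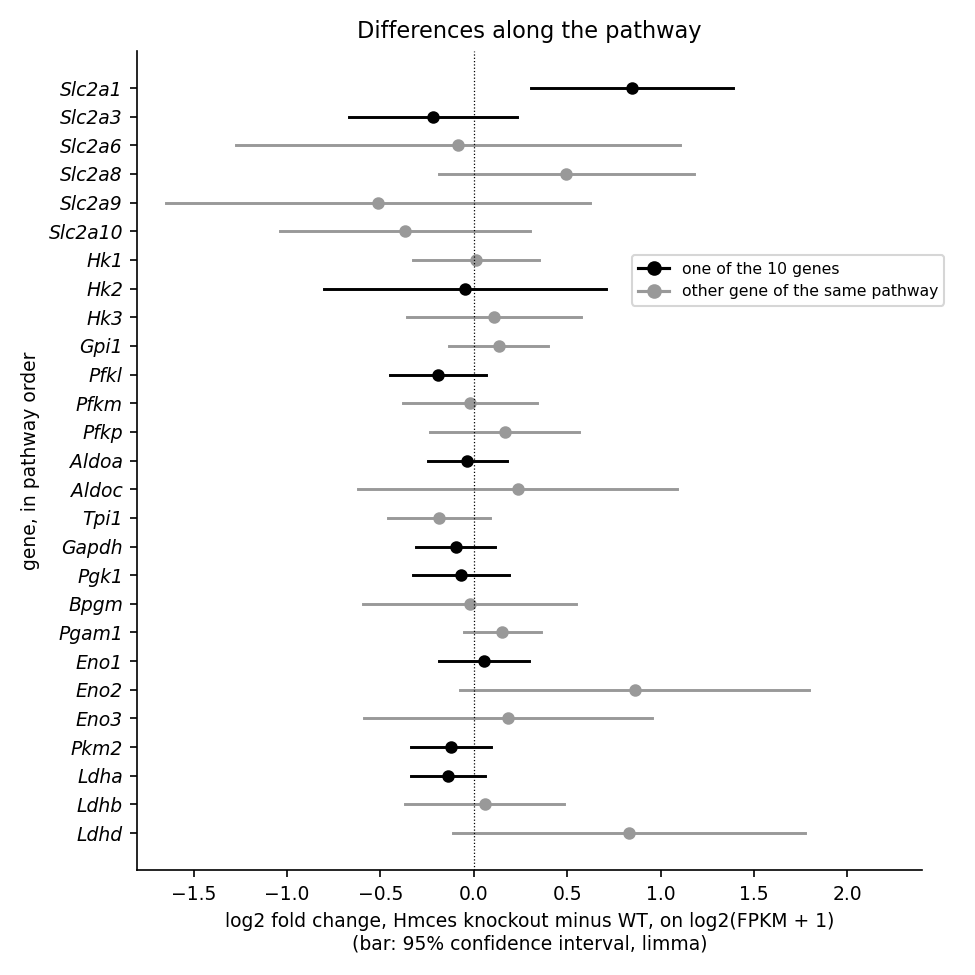
Log2 fold change of Hmces knockout minus WT on log2(FPKM + 1), with the limma 95% confidence interval, for the tested genes of each step in pathway order; black marks the 10 genes and grey the other genes of the same steps. The interval of Slc2a1 (0.30 to 1.39) excludes 0 before adjustment over all genes tested, and all others cross 0.

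As a group the 10 genes had a median log2 fold change of -0.08, against -0.01 over all genes tested. The difference was negative for 8 of the 10, against 51.9% of all genes tested. Their summed FPKM was 3488, 3617 and 3680.2 in WT and 3451, 3315 and 3331 in the knockout, a ratio of means of 0.936. No knockout sum reached the lowest WT sum. Under quantile normalization the ratio was 0.995 and the median -0.02. As a share of all FPKM in a library, the 10 genes took 0.469% ± 0.0329 in WT and 0.449% ± 0.0149 in the knockout (SD, n = 3 each), with overlapping groups.

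Among genes with a mean of at least 100 FPKM, the enzymes of the 10 had a low spread over the 6 libraries. The coefficient of variation of FPKM over all 6 libraries was 4.33% for Aldoa, 5.06% for Eno1 and 5.14% for Gapdh. Pkm2 had 6.20%, Ldha 6.22% and Pgk1 7.79%. The median over 1222 genes with a mean of at least 100 FPKM was 12.6%. Of these genes, 0.655%, 1.88% and 2.13% had a lower value than Aldoa, Eno1 and Gapdh, and 13.7% a lower value than Pgk1. Pfkl, which was less abundant, had 8.38%. Of the enzyme genes outside the 10, Pgam1 had 6.20%, Gpi1 9.81% and Tpi1 11.9%. The transporters and hexokinase varied more, at 39.0% for Slc2a1, 17.9% for Slc2a3 and 25.6% for Hk2. Genes with few reads vary more for counting reasons too, and the Slc2a1 value includes the difference between genotypes. The mean pattern of the 10 genes over the 6 libraries was matched most closely by Ppp1r7, Arpc5, Alg5, Top2a and Mrpl20, with root mean square differences of 0.0228 to 0.0406 on the centred log2 scale. They were picked from 6171 genes for likeness over 6 libraries, so the match is a description. The 10 genes themselves lay further from their mean pattern, from 0.0785 for Pgk1 to 0.469 for Slc2a1, so they shared no close pattern.

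Regulators of flux and of the fate of pyruvate were read without a call. Of 29 genes, 26 were tested, 12 had a positive and 14 a negative log2 fold change, and 0 were called. Txnip, whose protein restrains glucose uptake, had the smallest p of this list, at 142 ± 10.7 FPKM in WT and 174 ± 16.4 FPKM in the knockout (limma log2 fold change 0.29, SE 0.12, adjusted p = 0.534). Its 3 knockout libraries, at 160.5, 193 and 170.2 FPKM, all lay above the highest WT value of 153 FPKM. Pfkfb3, whose enzyme makes the activator of phosphofructokinase, had 6.36 ± 0.743 and 7.97 ± 1.08 FPKM (adjusted p = 0.737). Pfkfb4 had 5.33 ± 1.18 and 5.13 ± 2.46 FPKM, while Pfkfb1 and Pfkfb2 stayed under 3 FPKM on average in both genotypes. The pyruvate dehydrogenase kinases inhibit pyruvate dehydrogenase and are known to help hold HSCs in quiescence. Of these kinases, Pdk3 had 85.1 ± 4.74 and 80.8 ± 15.9 FPKM and Pdk1 had 28.8 ± 4.66 and 27.2 ± 3.63 FPKM. Pdk2 had 16.7 ± 3.71 and 19.0 ± 5.73 FPKM, and Pdk4 was too low to be tested. Each of these 3 kinase genes had overlapping groups (adjusted p from 0.871 to 0.928).

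The carriers on either side of pyruvate gave no called difference. Brp44l (now Mpc1) and Brp44 (now Mpc2) encode the mitochondrial pyruvate carrier and had 151 ± 3.45 and 158 ± 18.5 FPKM, and 94.1 ± 24.3 and 68.8 ± 13.4 FPKM, in WT and knockout (limma adjusted p = 0.907 and 0.614). Slc16a1, the lactate carrier MCT1, had 30.4 ± 9.35 and 22.1 ± 2.83 FPKM (adjusted p = 0.669). Slc16a3, the lactate exporter MCT4, had 4.67 ± 0.507 and 7.64 ± 5.09 FPKM (adjusted p = 0.773), with knockout replicate 2 alone at 13.3 FPKM. Bsg, which encodes the chaperone basigin of these carriers, had 376 ± 17.1 and 311 ± 60.9 FPKM (adjusted p = 0.604), and knockout replicate 1 lay inside the WT range. The Slc16a3 log2 fold change was 0.45, and it was -0.00060 without knockout replicate 2.

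Branches that draw on glycolytic sugars were read as well, with 25 of 27 genes tested, 15 positive, 10 negative and 0 called. Pygl, the glycogen phosphorylase gene that releases glucose 1-phosphate, had the smallest p of this list. It was measured at 43.4, 34.3 and 40.7 FPKM in WT, against 59.2, 68.9 and 52.1 FPKM in the knockout. All knockout libraries lay above WT, and the log2 fold change was 0.59 (SE 0.16, 95% confidence interval 0.22 to 0.97, limma adjusted p = 0.385). In the pentose phosphate pathway, which yields NADPH and ribose, G6pdx had 48.5 ± 4.27 and 50.8 ± 5.88 FPKM. Pgd had 91.6 ± 7.05 FPKM in WT and 112 ± 6.29 FPKM in the knockout, with groups that did not overlap (adjusted p = 0.532). Tkt had 204 ± 2.97 and 181 ± 13.5 FPKM, also without overlap, and Taldo1 had 228 ± 20.4 and 223 ± 27.0 FPKM (adjusted p = 0.662 and 0.947).

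**Figure D5:**
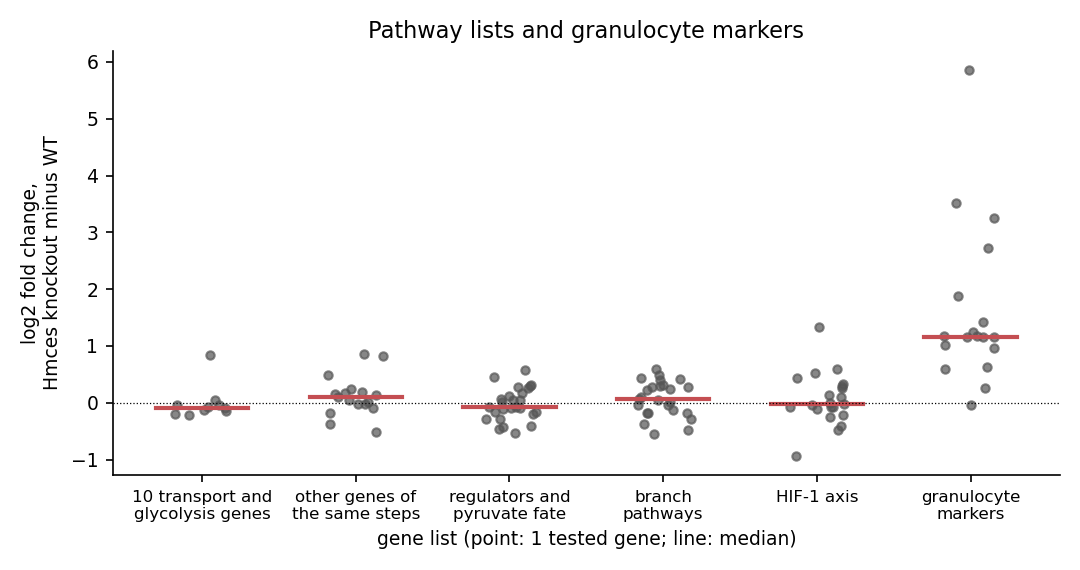
Each point is the log2 fold change (Hmces knockout minus WT) of 1 tested gene, in the 10 genes, 4 related lists and the granulocyte markers; red lines are list medians. The medians of the 10 genes (-0.08) and the 4 related lists (-0.08 to 0.11) lie near 0, and that of the granulocyte markers is 1.16.

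The HIF-1 axis list held HIF factors, their regulators and hypoxia targets outside glycolysis. Some members, such as Vhl, act against HIF, so its counts and median do not measure HIF-1 activity. Of 27 genes, 21 were tested, 10 were positive, 11 negative and 0 called, with a median log2 fold change of -0.02. Without overlap, 2 were higher and 1, Mif, was lower in the knockout (7.47% and 8.34% of all genes tested). Hif1a itself was read at 19.9, 16.2 and 29.8 FPKM in WT, against 22.1, 28.8 and 26.7 FPKM in the knockout. The knockout values all lay inside the WT range (limma adjusted p = 0.770). Mif, a cytokine gene and known HIF target, had the smallest p of the list. It was read at 1237.5, 1354 and 1257 FPKM in WT, against 969, 916 and 883 FPKM in the knockout, without overlap. The limma log2 fold change was -0.48 (SE 0.09, 95% confidence interval -0.68 to -0.27, adjusted p = 0.194). Vhl, chosen after its values were seen, encodes the protein that marks HIF-alpha subunits for destruction. It was read at 10.9, 6.52 and 4.22 FPKM in WT, against 15.03, 19.8 and 21.3 FPKM in the knockout, without overlap, a log2 fold change of 1.33 (SE 0.33, adjusted p = 0.324). These values stood beside the higher granulocyte and progenitor marker RNA of the same libraries, and its part in them was not tested.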

How the data were processed

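The authors deposited 1 table of FPKM values, with 1 column per library. TopHat2 2.1.1, Cufflinks 2.2.1 and build mm9 are named in the submitters' processing notes. For options, gene annotation and strand setting, nothing is given in the sources used here. Per the labels' protocols, RNA came from 1500 sorted cells, amplified by Smart-seq2 and read at 150 bp from both ends. FPKM is relative to each library's total, and a listed 0 can be a failed estimate. The test covered the 11532 genes whose mean FPKM reached 1, on log2(FPKM + 1) with limma 3.58.1 in R 4.3.3 (eBayes with trend, genotype as the only term, two-sided). P-values were adjusted by Benjamini-Hochberg over all genes tested. The fold change scale understates low genes. Each ratio between genotypes divides the mean FPKM values, and list scores were not tested.

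Depth rests on 1427 genes with 1 transcript over 1500 nt and an assumed fragment length of 200 nt. Fragment numbers cover counting error only. Transcript lengths and copies came from GENCODE M21 (blastn 2.17.0), and promoters from RefSeq GRCm38.p6. These annotations differ in build from the table, so no position of a measured gene was used. The 10 genes and 12 further gene lists were chosen with earlier results of these data known. Genes named outside the 10 follow a fixed rule, apart from Hmces, Vhl and the marker genes. The rule took steps without a listed gene, tested isoforms, a set of named regulators, the smallest p in each of 4 lists, and 5 genes of like pattern. Vhl was chosen after its values were seen. Of the markers, Fcgr3, Il7r, Fcgr2b, Mllt3 and Tek were named for their values. Deviations from the group mean correlated weakly between same-numbered libraries (0.0105 to 0.0803), against -0.0828 to 0.0484 for other combinations. These values cannot show whether libraries shared a litter or day, which the labels do not state, so no pairing was used.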

Additional observations from a re-analysis of the deposited data

How the results depend on the processing

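In all 16 alternative settings 0 of the 10 genes were called. Their directions held in 153 of 159 alternative values, and those of 38 other genes of the pathway lists in 570 of 601; none of these 48 genes gained or lost a call. Marker genes and genes of like pattern were not refitted one by one. The number of genes called over the whole table was 13, and it was 1 with no filter on low values, 6 with no variance trend, 20 with robust estimation and 32 with small RNA genes left out. Leaving out each library in turn gave 2 (without knockout replicate 3) to 19 (without WT replicate 3) calls. With the replicate number as a replicate block 2 genes were called. Same-numbered libraries correlated weakly in their deviations, and not every library correlated best with its own number. The labels state no pairing, so none was used. The cause of these changes in the number of calls was not tested. Under quantile normalization the median log2 fold change of the 10 genes was -0.024 and the ratio of their summed FPKM 0.995, and the log2 fold change turned to 0.054 for Aldoa, 0.0013 for Pgk1 and 0.025 for Taldo1. Leaving out each library gave a median of -0.13 to -0.055.

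Leaving out 1 library turned the direction of 19 genes, Slc16a3 only without knockout replicate 2. The log2 fold change ran from -0.31 to 0.13 for Hk2 and from -0.13 to 0.016 for Pgk1. Among isoforms it ran from -0.39 to 0.32 for Slc2a6, -0.11 to 0.11 for Hk1, -0.082 to 0.25 for Hk3, -0.069 to 0.065 for Pfkm, -0.071 to 0.51 for Aldoc, -0.18 to 0.18 for Bpgm, -0.048 to 0.42 for Eno3 and -0.14 to 0.16 for Ldhb. Among regulators and branches it ran from -0.76 to 0.28 for Pfkfb1, -0.35 to 0.39 for Pfkfb2, -0.41 to 0.11 for Pfkfb4, -0.16 to 0.049 for Pdk1, -0.060 to 0.31 for Pdk2, -0.18 to 0.080 for Pdk3, -0.00060 to 0.84 for Slc16a3, -0.024 to 0.14 for G6pdx and -0.13 to 0.032 for Taldo1. Hk2 could not be tested with a minimum mean of 5 FPKM. Exact depth is unknown, since the table gives no counts, and 3 libraries per genotype limit the precision.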
